A study of Mus musculus with 2 samples.

Results

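The nuclear genes of oxidative phosphorylation were compared between Id1 knockout and wild-type mouse embryonic stem (ES) cells. Members were the probe sets (groups of short probes that report 1 transcript) whose annotation gives exactly 1 gene symbol, and that symbol begins with Nduf, Uqcr or Atp5, is Sdha, Sdhb, Sdhc or Sdhd, or begins with Cox and a digit from 4 to 8, apart from Cox4i2. This gave 155 probe sets of 83 genes, out of 22626 non-control probe sets and 12393 genes. Of the 83 genes, 78 encode subunits of the 5 complexes and 5 encode complex I assembly factors (the Ndufaf genes). The study hybridised 1 array with RNA of ES cells lacking Id1 (Id1-/-) and 1 array with RNA of wild-type ES cells. Both were grown on gelatin in medium holding serum and the cytokine LIF (leukaemia inhibitory factor), which keep mouse ES cells self-renewing, and the comparison asks how the knockout differs under those conditions. The labels name no clone, strain, passage or age for either line, and the part of Id1 that was removed is not given in the sources used here.

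Oxidative phosphorylation takes place in the inner mitochondrial membrane. Complex I (NADH dehydrogenase, the Nduf genes) and complex II (succinate dehydrogenase, the Sdh genes) pass electrons to ubiquinone, complex III (the cytochrome bc1 complex, the Uqcr genes) passes them to cytochrome c, and complex IV (cytochrome c oxidase, the Cox genes) passes them to oxygen. Complexes I, III and IV pump protons, and complex V (ATP synthase, the Atp5 genes) uses the gradient to make ATP. Complex II is made only from nuclear genes, while the other complexes also hold subunits encoded in mitochondrial DNA. Naive mouse ES cells use both glycolysis and respiration, and the primed epiblast state is known for relying more on glycolysis.

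Values are intensities as deposited. Differences are knockout minus wild type on the log2 scale after the median of each array was subtracted, and a gene is represented by its brightest probe set. A gene passed the brightness filter when it reached the array median on at least 1 array, which lay at 155.0 on the knockout and 152.5 on the wild-type array. With 1 array per genotype there is no replicate and no test, so every difference is between these 2 arrays and cannot be told apart from differences between the cultures or hybridisations. The error that could be measured is technical: over 2567 genes with at least 2 passing probe sets, probe sets of 1 gene scattered with a median SD of 0.22 (log2), and over the 41 such member genes with 0.14. Id1 itself was lower on the array labelled as its knockout, at 461 against 1045 (-1.20). Its knockout reading stayed above that array's median of 155.0, so an Id1 signal remained. All 10 ES cell markers passed the filter on these arrays, with a summed intensity of 38429 in the knockout against 47416. The list was split, with 6 lower and 4 higher. Fgf4 (1269 against 3178, 2.55-fold), Nanog (2195 against 5423, 2.51-fold) and Zfp42 (5361 against 8512, 1.61-fold) were lower past 1.5-fold, and Tdgf1 (-0.38), Pou5f1 (6834 against 8636, -0.36) and Sox2 (-0.19) were lower by less. Utf1 (0.44), Lin28a (0.43), Sall4 (0.31) and Dppa4 (0.10) were higher. Of 9 fibroblast markers 3 passed (Vim, Thy1 and Col1a2), of 6 muscle markers 1 (Acta1) and of 4 endoderm markers 0, with summed intensities of 3134 against 4989, 518 against 403 and 306 against 456. Most of the fibroblast sum was Vim (2363 against 4251). Thy1 was lower (193 against 276) and Col1a2 level (199 against 194). Among fibroblast markers that did not pass, Col1a1 was higher (133 against 83.0) and Col3a1 lower (38.3 against 69.0), so that list had no common direction. The part of these marker differences in the results was not tested.

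Most genes of the machinery were slightly lower in the knockout. Of the 83 members 80 passed the filter, and 58 of the 80 (72.5%) had a log2 difference below 0, against 51.2% of all 7369 genes that passed. The other 22 were above 0, against 48.8% of all genes. The median of the 80 was -0.18, against -0.01 for all genes. Members are bright on these arrays, and of the 75 passing subunit genes 68 were among the 1474 genes with a mean intensity of at least 1407. Of those 1474 genes 56.6% were below 0, with a median of -0.05, while of the 68 subunit genes 51 were below 0, with a median of -0.17. The shift was small for each gene: 78 of 80 differed by less than 2-fold.

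Differences past a fixed fold were rarer than, or about as frequent as, among all genes. Of the 80 members 2 (2.50%) were at least 2-fold lower, against 3.92% of all genes, and none was at least 2-fold higher, against 3.92%. At 1.5-fold 10 (12.5%) were lower, close to the 11.5% of all genes, and 1 (1.25%) was higher, against 10.5%. In either direction 2 members were past 2-fold, against 7.84% of all genes, and 11 past 1.5-fold, against 22.0%. The count of lower members at 1.5-fold is near the share of all genes, while the share below 0 is above it. Bright genes passed a fixed fold less often. Of the 1474 brightest genes 7.26% were at least 1.5-fold lower and 3.73% higher. Of the 68 subunit genes among them 7 (10.3%) were lower and 1 (1.47%) was higher. At 2-fold the shares of the 1474 were 1.83% lower and 0.814% higher, and of the 68 subunit genes 1 (1.47%) was lower and 0 were higher. The 10 lower members were Ndufa1, Ndufb11, Ndufs5, Ndufv1, Ndufaf5, Uqcrq, Uqcr10, Cox5a, Cox6b2 and Atp5g1, and the higher one was Atp5k.

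The medians of the complexes ran from 0.03 to -0.43. Complex III had the lowest median, -0.43, and all 8 of its genes were below 0. Complex I had a median of -0.23 over 33 genes (25 below 0), complex IV -0.20 over 13 (11 below 0), complex V -0.07 over 17 (9 below 0) and complex II 0.03 over 4 (2 below 0). The medians of complexes III and V differed by -0.35, those of I and V by -0.16, and those of I and IV by -0.04. With only probe sets whose name has no s, x or a suffix, the median of complex III was -0.23, level with complex I (-0.23) and complex IV (-0.24). That setting drops Uqcrc1 and Uqcrc2, which have no such probe set, and reads Uqcrq from a dim one (175 and 174). The lower median of complex III thus depends on the choice of probe sets and on the genes they keep. No test of a difference between complexes was possible, since genes on 1 pair of arrays are not replicates.

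**Figure D1:**
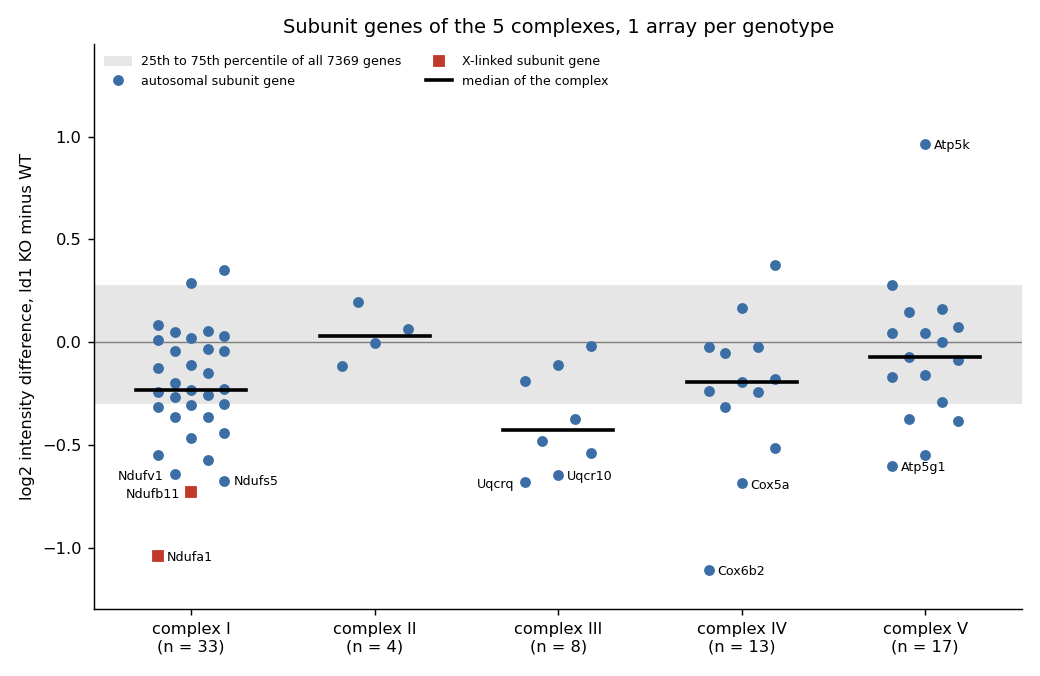
Log2 intensity difference (knockout minus wild type, vertical axis) of each passing subunit gene, by complex, with 1 point per gene and a bar at the median; the grey band is the interquartile range of all 7369 genes. All 8 complex III genes lie below 0 with a median of -0.43, complex II and complex V centre near 0 (0.03 and -0.07), and the X-linked genes Ndufa1 and Ndufb11 (squares) are the lowest of complex I.

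In complex III catalytic, core and small subunits were all below 0, but by unlike amounts. Uqcrfs1, the Rieske iron-sulphur protein that takes electrons from ubiquinol, read 2652 on the knockout and 3795 on the wild-type array, a log2 difference of -0.54. The core proteins, which face the matrix, were lower by less: Uqcrc2 read 3670.1 against 4681 (-0.37, and both of its probe sets were lower) and Uqcrc1 4994 against 5606 (-0.19). Among the small subunits, Uqcrq read 3305 against 5215 (-0.68). Uqcr10 read 2403 against 3700.0 (-0.65), with all 3 probe sets lower. Uqcr11 read 2649.5 against 3638 (-0.48). The remaining small subunits were almost level. Uqcrb read 14185 against 15099 (-0.11), with 0.15 for its other probe set, and Uqcrh, the hinge protein that helps cytochrome c1 meet cytochrome c, read 3155 against 3146 (-0.02). The value of Uqcrq rests on its brightest probe set, since the other that passed read 175 and 174. Cyc1, cytochrome c1, is a catalytic subunit of complex III that the naming rule does not reach, and it read 6203 against 6671 (-0.13).

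The bases before the start of several complex III genes are shown because these genes were lower together, beside Uqcrh, which was level, and Ndufb11, an X-linked gene of complex I. Each is the 250 bases upstream of the RefSeq gene start in build GRCm38.p6, written 5′ to 3′ on the gene's strand. Capitals mark matches on either strand to ACTTCCG (the ETS factor GABPA) or CCAAT (NFY), and no match to the other motifs searched falls in these stretches. The stretches lie at chr13:30545317-30545566, minus strand (Uqcrfs1), chr11:4704345-4704594, minus strand (Uqcr10), chr10:80406822-80407071, minus strand (Uqcr11), chr4:116075071-116075320, minus strand (Uqcrh) and chrX:20617620-20617869, minus strand (Ndufb11).
Uqcrfs1: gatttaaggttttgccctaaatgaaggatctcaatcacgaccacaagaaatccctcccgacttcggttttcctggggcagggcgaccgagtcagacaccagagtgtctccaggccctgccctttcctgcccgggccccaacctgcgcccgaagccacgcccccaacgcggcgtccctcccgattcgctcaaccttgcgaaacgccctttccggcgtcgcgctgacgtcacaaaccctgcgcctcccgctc
Uqcr10: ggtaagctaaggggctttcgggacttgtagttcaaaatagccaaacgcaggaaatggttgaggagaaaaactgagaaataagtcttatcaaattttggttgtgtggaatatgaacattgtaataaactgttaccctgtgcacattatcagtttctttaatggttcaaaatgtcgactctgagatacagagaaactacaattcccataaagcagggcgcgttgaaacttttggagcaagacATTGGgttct
Uqcr11: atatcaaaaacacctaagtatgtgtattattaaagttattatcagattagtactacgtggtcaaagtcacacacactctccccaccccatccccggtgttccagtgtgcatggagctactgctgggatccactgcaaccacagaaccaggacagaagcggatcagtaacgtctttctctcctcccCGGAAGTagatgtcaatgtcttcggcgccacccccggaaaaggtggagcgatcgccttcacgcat
Uqcrh: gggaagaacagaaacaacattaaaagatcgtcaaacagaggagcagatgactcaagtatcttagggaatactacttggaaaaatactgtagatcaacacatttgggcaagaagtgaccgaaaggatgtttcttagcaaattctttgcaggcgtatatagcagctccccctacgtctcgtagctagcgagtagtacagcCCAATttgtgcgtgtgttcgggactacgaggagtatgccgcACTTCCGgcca
Ndufb11: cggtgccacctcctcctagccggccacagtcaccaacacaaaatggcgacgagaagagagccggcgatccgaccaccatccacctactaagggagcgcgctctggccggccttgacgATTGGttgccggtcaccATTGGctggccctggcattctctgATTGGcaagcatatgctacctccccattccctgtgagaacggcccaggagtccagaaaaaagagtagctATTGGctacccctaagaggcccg

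The stretch of Uqcrfs1 holds no match, that of Uqcr10 a single NFY match whose first base lies at position -10, and that of Uqcr11 a GABPA match at -65. Uqcrh, with a log2 difference of -0.02, holds both motifs, at -52 and -11. Ndufb11 holds 4 NFY matches, at -133, -116, -92 and -23. The same stretches of Uqcrc1 (-0.19) and of Ndufa1 (-1.04), the other X-linked member, were also searched and are not printed. Neither holds a match. The NRF1 palindrome of Uqcrc1 lies after its start, at position 31.

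Across the group, windows from 250 bases before to 50 after the gene start were found for 70 of the 83 members. The 10-base palindrome of NRF1 was found in 6 of 70 (8.57%), against 2.28% of 6053 genes that passed the filter and 0.977% of all 27025 genes with a window. Its 6 holders were Uqcrc1, Cox6a1, Atp5g2, Atp5k, Ndufaf4 and Ndufaf5. With any base allowed at its sixth position, which includes these matches, the shares were 21.4%, 12.1% and 4.78%. AAGATGGC (YY1) was found in 8 of 70 (11.4%), against 5.62% and 2.88%, and 6 of the 8 were among the 30 complex I subunit genes with a window. ACTTCCG was found in 12 (17.1%), against 15.1% and 6.59%, and CCAAT in 28 (40.0%), against 39.1% and 37.9%. TCAAGGTCA (the ESRR motif) was found in 2 members, Sdhd and Atp5g3 (2.86%, against 0.281% and 0.407%). With and without a match, the median log2 differences were furthest apart for GABPA. The median was -0.22 for the 6 members with the NRF1 match and -0.19 for the 62 passing members without it, and -0.21 and -0.18 with and without the YY1 match. It was -0.06 and -0.23 for GABPA, -0.14 and -0.23 for NFY, and -0.19 on both sides for ESRR. A match describes letters in a window and does not show binding.

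In complex I the flavin and iron-sulphur subunits of the catalytic core were all below 0. Ndufv1, which binds NADH and the flavin, read 2517 on the knockout and 3867 on the wild-type array (-0.64), and all 3 of its probe sets were lower. Ndufs7, which carries the iron-sulphur cluster next to ubiquinone, read 1994 against 2667 (-0.44), and Ndufs3 read 1603 against 2029 (-0.36). The core median over 6 genes was -0.31. Ndufs1 read 1394 against 1641 (-0.26) and Ndufv2 4466 against 5189 (-0.24). Ndufs8 was nearly level at 3678 against 3727 (-0.04), with 3 of its 6 probe sets on either side of 0, and the third probe set of Ndufv2 gave 0.44.

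Accessory subunits of complex I, which surround the core, spread more widely. The 8 of the matrix arm had a median of -0.19 and the 18 of the membrane arm -0.21. Ndufs5 read 558 against 877 (-0.68). Ndufa8 read 1942 against 2844 (-0.57) and Ndufa5 1126 against 1621 (-0.55), both close to 1.5-fold lower. At the other end, Ndufb7 read 4263 against 3292 (0.35, both probe sets higher), Ndufa2 2465 against 1985 (0.29) and Ndufs4 1765 against 1637 (0.09). The other probe sets of Ndufs4 were below 0. Ndufab1, the mitochondrial acyl carrier protein, which also serves fatty acid synthesis, was level at 3265 against 3151 (0.03).

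The lowest complex I genes, Ndufa1 and Ndufb11, are the X-linked members of the group. Ndufa1, a small subunit of the membrane arm, read 5146 on the knockout and 10397 on the wild-type array, 2.05-fold lower by its single probe set. Ndufb11, also of the membrane arm, read 3955 against 6458, 1.66-fold lower, and its other probe sets were 1.79-fold and 2.52-fold lower. Their log2 differences of -1.04 and -0.73 stand beside a median of -0.55 over all 238 X-linked genes that passed, of which 197 were below 0. Whether the difference of Ndufa1 and Ndufb11 is part of that chromosome-wide difference was not tested. Without both, complex I kept a median of -0.23 over 31 genes, with 23 below 0.

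**Figure D2:**
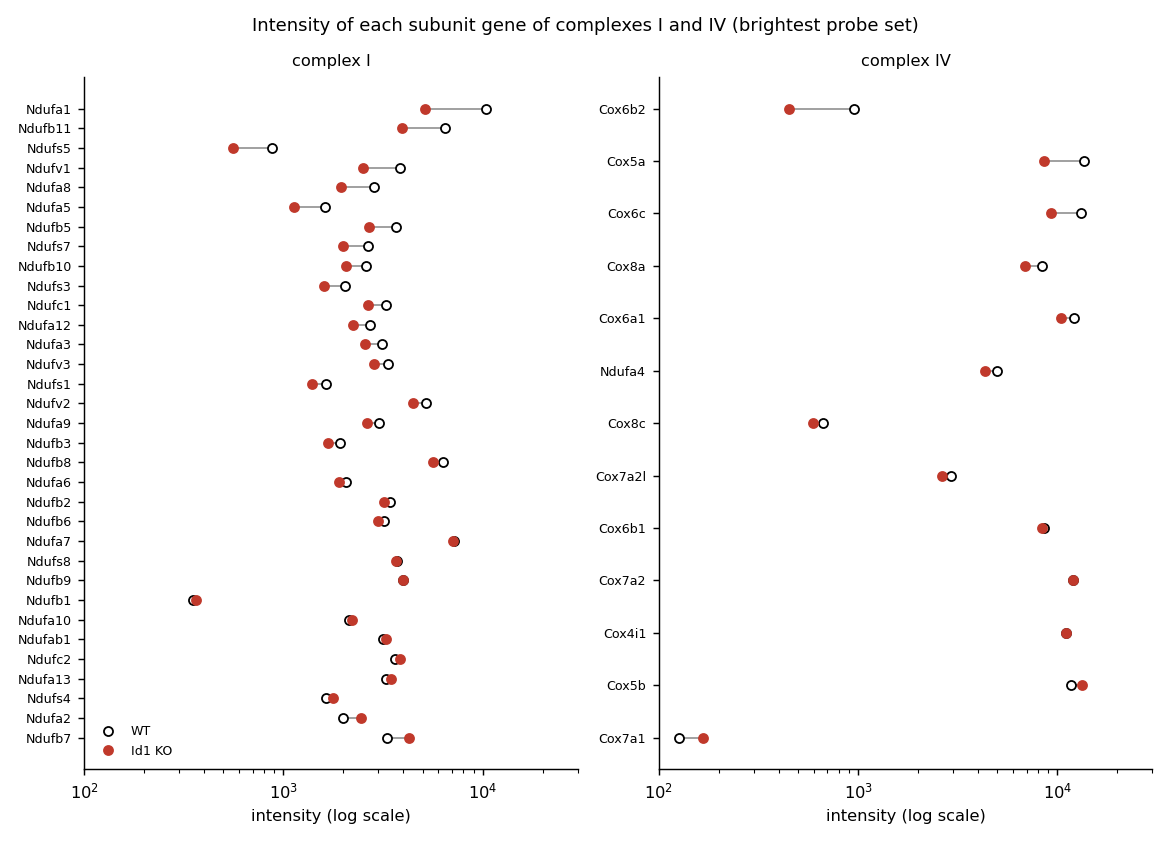
Intensity (horizontal axis, log scale) of each passing subunit gene of complexes I and IV on the wild-type array (open) and the knockout array (filled), 1 brightest probe set per gene, in order of the difference. The largest gaps are those of Ndufa1 (5146 against 10397) and Cox6b2 (448 against 949.9), while Cox4i1 and Cox7a2 overlap.

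Complex II, like complex V, centred near 0. Sdha, the flavoprotein that oxidises succinate, read 2509 on the knockout and 2358 on the wild-type array (0.07), and Sdhb, the iron-sulphur subunit, read 3453 against 3681 (-0.12). The membrane anchors Sdhc and Sdhd read 2218 against 1908 (0.19) and 3003 against 2963 (0.00 after centring). The probe sets of Sdhc disagreed, with 0.19 for the brightest and -0.43 for the other, so the value of Sdhc has a wide technical error in a complex of 4 genes.

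Complex IV held bright genes that were level and others that were lower. Cox4i1, the largest nuclear-encoded subunit, read 11052 against 11035 (-0.02), Cox7a2 11912 against 11925 (-0.03) and Cox6b1 8399 against 8573 (-0.05). Cox5a, a matrix-side subunit, read 8569 against 13571 (-0.69), and its other probe sets gave -0.16 and -0.48. Cox6c read 9336 against 13104 (-0.51), although its other probe set was higher (0.18). Cox8a at 6879 against 8418 (-0.31) and Cox6a1 at 10398 against 12090.0 (-0.24) were lower by both of their passing probe sets. Cox5b was the ubiquitous subunit above 0, at 13327 against 11672 (0.17), with 3 of 4 passing probe sets higher. Ndufa4, named for complex I but found in complex IV, read 4314 against 4996 (-0.24), and Cox7a2l, which links complexes III and IV into supercomplexes, read 2629 against 2926 (-0.18), with all 3 probe sets lower.

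Among tissue isoforms of complex IV, those of testis passed the filter. Cox6b2 read 448 on the knockout and 949.9 on the wild-type array, 2.16-fold lower by its single probe set and the largest difference of the 80 members. Cox8c read 594 against 669 (-0.20). Of the isoforms of heart and skeletal muscle, Cox6a2 and Cox8b did not pass, and Cox7a1 read 166 against 126 (0.37), just above the filter on the knockout array. Of the 6 muscle markers, Acta1 passed through the knockout array alone (162 against 77.9). Among those that did not pass, Ckm (87.3 against 39.6) and Myh6 (67.8 against 29.3) were higher, with wild-type signals below the floor. Tnnt2 lay below the floor on both arrays. Myh7 was lower (44.0, below the floor, against 110.3) and Actc1 read 132 against 139, so the list was mixed. Its part in the value of Cox7a1 was not tested. Cox7c, a ubiquitous subunit, was the third member that did not pass, at 66.2 and 55.4. Without the isoforms the median of complex IV was -0.21 over 10 genes, with 9 below 0.

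In complex V each part held genes of both signs. In the catalytic F1 head, Atp5b, the catalytic beta subunit, was higher at 13034 against 10574 (0.28), Atp5a1, the alpha subunit, read 13008 against 14390.5 (-0.17), and Atp5c1, the gamma subunit that turns inside the head, read 8919 against 10736 (-0.29). Atp5d was level (0.00) and Atp5e was at -0.16. The 3 genes of the rotor's c-ring encode the same mature protein, and they differed in direction: Atp5g1 read 4409.7 against 6579 (-0.60), Atp5g3 13169 against 16889 (-0.38) and Atp5g2 6655 against 5921 (0.14). In the peripheral stalk, Atp5o read 4796 against 6113 (-0.37), and Atp5pb, Atp5h and Atp5j lay between -0.09 and 0.05.

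The membrane subunits e and g stabilise ATP synthase dimers. Atp5l (subunit g) read 3668 on the knockout and 5273 on the wild-type array (-0.55). Atp5k (subunit e) read 6789 against 3422 by its brightest probe set, 1.95-fold higher and the highest of all members. Its other passing probe sets went the other way, at 3554 against 4780.2 (-0.45) and 2079 against 2616 (-0.36). The mean over its probe sets was 0.05, so no direction can be given for Atp5k. Atp5mpl at 2609 against 2296 (0.16), Atp5j2 (0.07) and Atp5md (0.04) were close to level.

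**Figure D3:**
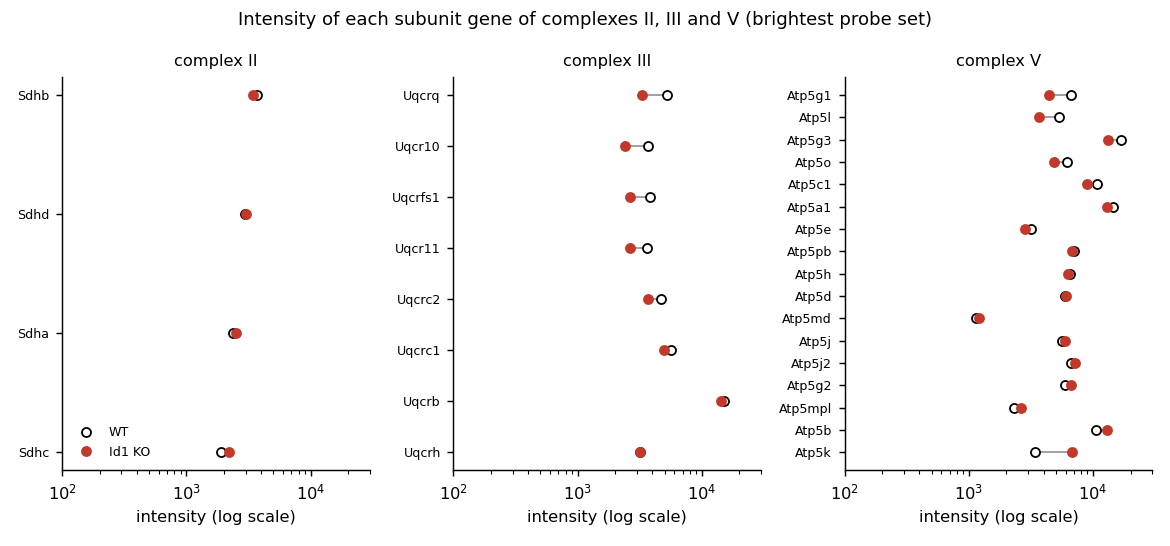
Intensity (horizontal axis, log scale) of each passing subunit gene of complexes II, III and V on the wild-type array (open) and the knockout array (filled), 1 brightest probe set per gene. The knockout point lies left of the wild-type point for 7 of 8 complex III genes and overlaps it for Uqcrh, while complex V runs from Atp5g1 (-0.60) to Atp5k (0.96).

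Probe sets of the same gene gave a check of each direction. Of 41 members with several passing probe sets, 25 had all of them below 0, 2 had all above 0 (Sdha and Ndufb7) and 14 had both signs. One-way genes made up 65.9% of the members and 56.8% of all genes that had more than 1 passing probe set. The 14 with both signs were Ndufab1, Ndufa7, Ndufc2, Ndufs4, Ndufs8, Ndufv2, Sdhc, Uqcrb, Cox5b, Cox6c, Atp5a1, Atp5d, Atp5j2 and Atp5k. Atp5a1 had probe sets at 0.42 and 0.13 besides -0.17, Atp5j2 at -0.24 besides 0.07, and the dimmest of the 5 probe sets of Ndufa7 read 517 against 747. Counted over probe sets, 105 of 140 that passed were below 0, and in complex III 12 of 13, in complex I 53 of 69, in complex IV 20 of 25, in complex V 16 of 26 and in complex II 4 of 7. For all genes, neither the share of passing probe sets below 0 nor the direction of agreeing probe sets was counted. These counts therefore have no background beside them.

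**Figure D4:**
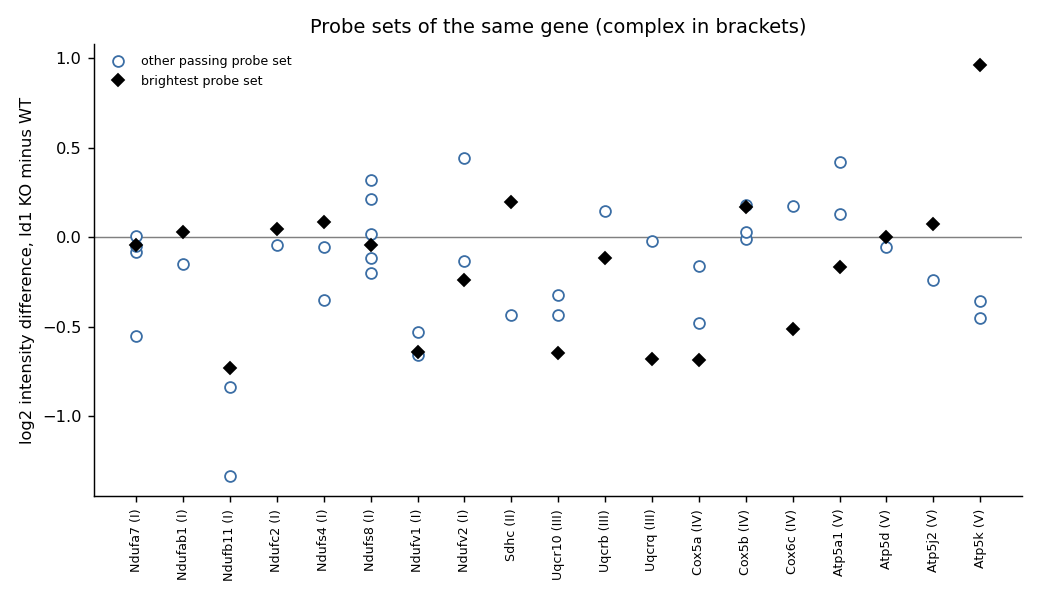
Log2 intensity difference (knockout minus wild type) of every passing probe set of 19 genes, namely those whose probe sets had both signs or that were past 1.5-fold with several probe sets; the diamond is the brightest probe set. Ndufb11, Ndufv1, Uqcr10 and Cox5a lie below 0 with all probe sets, whereas the diamond of Atp5k at 0.96 stands apart from -0.45 and -0.36.

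Genes that build or feed the complexes showed different patterns. Of 34 passing assembly factors, 18 were below 0 with a median of -0.01. The copper chaperone gene Cox19 (597 against 1096, 1.87-fold), the membrane insertase gene Oxa1l (477 against 733, 1.56-fold) and Ndufaf5 (268 against 403, 1.53-fold) were lower, and the complex I assembly gene Timmdc1 was higher (583 against 262, 2.19-fold). Of the Ndufaf genes, Ndufaf1 (-0.50) and Ndufaf4 (-0.33) were below 0 and Ndufaf3 (0.11) and Ndufaf7 (0.14) above it. The median of the assembly factors thus lay at that of all genes. Among electron carriers and genes of ubiquinone synthesis, 9 of 15 were below 0 (median -0.02). Cycs, cytochrome c, was level at 5608 against 5327 (0.05). Etfb, which together with Etfa and Etfdh carries electrons from fatty acid oxidation to ubiquinone, read 2460.4 against 5231 (2.16-fold lower), Etfdh 191 against 292 (1.55-fold lower) and Etfa was at -0.31. The ubiquinone synthesis gene Coq8a read 59.5 against 159 (2.73-fold lower) and passed only through the wild-type array.

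Enzymes of the tricarboxylic acid cycle and pyruvate dehydrogenase leaned lower, with 12 of 17 below 0 and a median of -0.31. At 1.5-fold 5 of 17 were lower and none was higher, against 11.5% and 10.5% of all genes. Idh3g (2152 against 4657, 2.20-fold) and Pdha1 (3179 against 6058, 1.94-fold) were the lowest, and both are X-linked. The autosomal Idh2 (882 against 1595, 1.84-fold), Pcx (319 against 557, 1.78-fold) and Cs, citrate synthase (1781 against 2752, 1.57-fold), followed. Pcx encodes pyruvate carboxylase, which supplies the cycle without being part of it. For Cs, 2 of its 3 passing probe sets were lower. Without X-linked genes the median was -0.30 over 15. Of those 15, 3 (20.0%) were at least 1.5-fold lower, against 10.3% of all genes without the X-linked ones. Of all X-linked genes 46.6% were at least 1.5-fold lower. The mitochondrially encoded subunits were represented by ND5 of complex I, which read 3482 against 3710.2 (-0.12).

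Regulators of mitochondrial genes went both ways, with 12 of 20 below 0 and a median of -0.04. Esrrb, an orphan nuclear receptor of naive ES cells, read 619 against 1669 (2.74-fold lower), and its relative Esrrg was at least 3.31-fold higher, at 160.3 against a wild-type signal below the floor. Esrrg passed by its single probe set and only through the knockout array, just above that array's median of 155.0. Tfb1m, a mitochondrial ribosomal RNA methyltransferase, was 1.55-fold lower (331 against 503), and Polg2, the accessory subunit of the mitochondrial DNA polymerase, 1.62-fold higher (459 against 279). Tfam, which packages and transcribes mitochondrial DNA, read 1751 against 2177 (-0.34). Gabpa read 780.2 against 975 (-0.35), Nrf1 555 against 564 (-0.05) and Esrra 227 against 167 (0.42). The coactivator genes Ppargc1a and Ppargc1b did not pass the filter on either array.

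Across processing settings, complex III had the lowest median in 13 of 14 settings and complex II the highest in all 14. The exception was the setting with suffix-free probe sets, in which complexes I, III and IV were level (-0.23, -0.23 and -0.24). The median of complex III was also nearer 0 with the mean over all probe sets of a gene (-0.28) or over passing ones (-0.35). The other floors, filters and memberships left it at -0.43. They changed none of its values, so they are no check of it. Complex II lay just above complex V with the mean over all probe sets (-0.06 and -0.08).

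**Figure D5:**
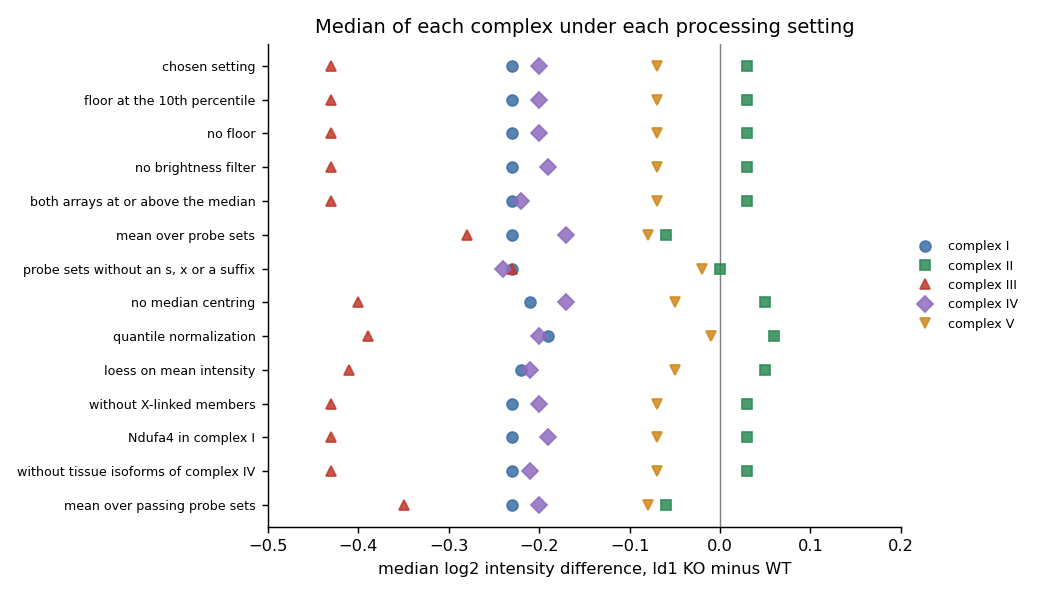
Median log2 intensity difference (knockout minus wild type, horizontal axis) of the subunit genes of each complex under the chosen setting and 13 others (vertical axis). Complex III ranges from -0.43 to -0.23, complex I from -0.23 to -0.19, complex IV from -0.24 to -0.17, complex V from -0.08 to -0.01 and complex II from -0.06 to 0.06.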

How the data were processed

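RNA was extracted with RNeasy and 1 ug was labelled with biotin, per the labels' protocols. The authors deposited linear intensities, a single value for each probe set on each array; the software that made them is not given in the sources used here. After trimming 2% of probe sets at either end, the mean was 500.2 on both arrays, so they share a scale. Probe sets were named from the 2016 platform annotation, and chromosomes and promoter windows (the first listed per gene) came from RefSeq, GRCm38.p6.

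Intensities were converted to log2, centred on the array median over non-control probe sets (a shift of 0.02), and floored at the 25th percentile of both arrays pooled (48.4 on the knockout, 47.6 on the wild-type array). The probe set of highest mean stood for its gene. Of 12393 genes 7369 passed the filter. Named were members past 1.5-fold, the 3 highest and 3 lowest of each complex, X-linked members, the 5 brightest, members whose probe sets disagreed, and in related lists those past 1.5-fold (up to 4 each way) plus fixed carriers and regulators; the others were chosen after their values were seen. Members and lists were chosen with earlier results of these data known. The scripts were tested on simulated data. Python 3.11.15, pandas 2.3.3 and statsmodels 0.14.6 (loess) were used. The number of arrays limits the precision. Alternatives covered the floor, filter, probe set choice, scaling and membership.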

Additional observations from a re-analysis of the deposited data

Results flagged for a closer look

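The comparison left out 8 probe sets whose annotation gives a member's symbol beside another symbol. Of these 7 passed the brightness filter, and 1 was at least 1.5-fold higher and 2 were at least 1.5-fold lower on the knockout array. Their log2 differences ran from -0.77 to 0.62 with a median of -0.05. They carry signal outside the comparison, and it cannot be assigned to 1 gene.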

How the results depend on the processing

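Medians of complexes I, II, IV and V and of all subunits moved by at most 0.1 on the log2 scale under every setting tried, and the share of members below 0 lay between 66.2% and 73.8%. The median of complex III was -0.28 with the mean over all probe sets of a gene and -0.23 with probe sets whose name has no s, x or a suffix, a setting that kept 56 of 80 members. Under that last setting 5 members were at least 1.5-fold lower, against 10. Ndufa1, Ndufaf5 and Atp5g1 have no such probe set and dropped out, while Uqcr10 (-0.43) and Uqcrq (-0.02) were no longer past 1.5-fold. With the mean over all probe sets, or over passing probe sets (chosen after seeing the data), 0 members were 1.5-fold higher, against 1, because Atp5k moved from 0.96 to 0.05. Quantile normalization gave 1 member 2-fold higher and 1 lower, against 0 and 2, and without X-linked members 1 was 2-fold lower. No member past 1.5-fold changed sign in a setting that kept it. Uqcrq moved most among lower members, to -0.02 with probe sets without a suffix. No paired analysis was possible because there is 1 array per genotype, and for the same reason no replicate could be left out. Signals near the floor carry little information, which limits the muscle isoforms of complex IV.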
